A study of Danio rerio with 18 samples.

Results

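Whole zebrafish embryos exposed to TMAT gold nanoparticles were compared with embryos exposed to MES gold nanoparticles at 48 hours post fertilization (hpf). The comparison used 6 of the study's 18 arrays, chosen by the ligand and age in their labels, with 3 TMAT arrays and 3 MES arrays. Both particles had a gold core of 1.5 nm. TMAT is trimethylammoniumethanethiol, a positively charged thiol ligand, and was given at 10 µg/mL. MES is mercaptoethanesulfonate, a negatively charged one, and was given at 50 µg/mL. Ligand and dose therefore changed together, and their parts in any difference cannot be told apart. In both groups embryos were freed of the chorion at 4 hpf and kept in particles between 6 and 48 hpf, and each array held the RNA of 40 pooled embryos. The labels give 37 °C for the exposure of every group. TMAT and MES arrays at 24 hpf (3 each) and unexposed vehicle controls at 48 hpf (3 arrays), handled in the same way, are given beside the comparison and did not enter its fit. No label says that the pools came from separate clutches, so p-values measure the spread between these pools. The arrays were one-colour NimbleGen expression arrays, and every level below is the log2 of the authors' normalized intensity.

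The surface ligand sets the charge and chemistry that a nanoparticle presents to the surface of an embryo. The larval skin takes up calcium and sodium and sheds ammonia through ionocytes, cells rich in mitochondria that carry transporters at the outer surface. Tight junction proteins called claudins seal the spaces between epithelial cells. Exposed tissue is commonly examined for heat shock, oxidative, metal and xenobiotic responses, and these gene groups were described together with markers of the main embryonic tissues. The gene lists were chosen with earlier results of these data known, so counts over their members are descriptions.

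The 6 arrays were alike. Pearson's r across the features was 0.959 to 0.993 for the 9 pairs of a TMAT and a MES array (mean 0.980), 0.979 to 0.986 within TMAT arrays (mean 0.981) and 0.972 to 0.988 within MES arrays (mean 0.982). Arrays of different particles were thus about as close as arrays of one particle, and the closest pair of all was TMAT 2 with MES 3. TMAT 3 and MES 2 stood farthest from the rest, each with a mean r of 0.974 to the other 5 arrays, against 0.983 to 0.986 for the remaining 4. The intensity of the random probes, which match no transcript and gauge background, was 83.2, 79.6 and 96.4 on the TMAT arrays and 80.1, 78.8 and 80.3 on the MES arrays. TMAT 3 was thus the brightest of the 6 in background. Of 40 marker genes of embryonic tissues, 17 were measured, and 16 of these stood more than 2-fold above the random probes on all 6 arrays. The exception was the heart marker myl7, at 7.36 to 7.52 in TMAT arrays and 7.34 to 7.61 in MES arrays. No listed liver marker was measured. Of the controls set beside the comparison, control 2 stood apart, with a random-probe intensity of 169 against 106 and 82.8 on the others and r of 0.844 to 0.896 with the particle arrays, so control ranges are also given without it. The agent labels rest on the tables deposited per array, because 16 of the 18 columns of a combined table held the values of an array other than the one they named. Among the 6 arrays compared, the combined column of 1 held its own values. The mismatch by itself does not show which labels are right.

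No feature passed the test. Of 37105 features, 0 were called at an adjusted p of 0.05 (0% of those tested) by limma with Benjamini-Hochberg adjustment, and the smallest adjusted p was 0.702. At an unadjusted p under 0.05 there were 691 features with a higher value in TMAT embryos (1.86%) and 1931 with a lower one (5.2%), together 2622 (7.07%) against 1855 expected by chance. The count ran from 590 to 4873 under alternative settings, so its excess over 1855 is not read as a result. The differences, given as TMAT minus MES on the log2 scale, had a median of 0.00 and lay between −0.58 and 0.40 for the middle 90% of features. The precision sets a limit to what could have been missed. The 95% interval of the difference lay wholly within 2-fold in either direction for 31570 features (85.1%), and its median half-width was 0.46. For those features a 2-fold difference lay outside the interval. For the other features the interval reached or passed 2-fold in at least 1 direction.

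**Figure D1:**
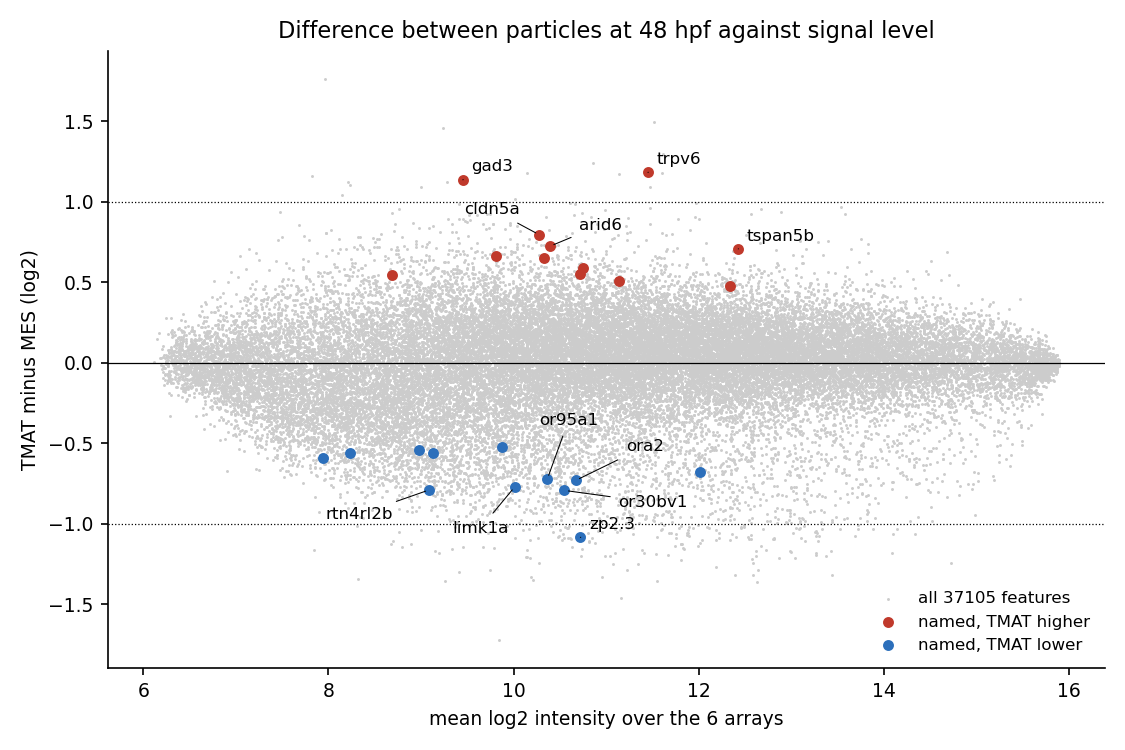
Difference between TMAT and MES embryos at 48 hpf (TMAT minus MES, log2, vertical axis) against the mean log2 intensity over the 6 arrays (horizontal axis) for 37105 features in grey. The 12 named genes with the smallest p in each direction are in red (TMAT higher) and blue (TMAT lower), and dotted lines mark 2-fold. Differences beyond 2-fold were 19 above and 182 below, and the grey cloud reaches farther down than up.

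The 12 named genes with the smallest p in each direction had unadjusted p-values of 0.000119 to 0.0152 and adjusted p-values of 0.702. Their differences were 0.48 to 1.18 among those higher in TMAT embryos (1.39-fold to 2.27-fold) and 0.52 to 1.08 in size among those lower (1.43-fold to 2.12-fold). The values of TMAT and MES arrays did not overlap for any of the 24. Over all features, the groups did not overlap with TMAT higher for 1671 features (4.5%) and with TMAT lower for 2615 (7.05%). For a single gene, an exact permutation test of 3 arrays against 3 cannot give a p below 0.1, the two-sided value that each of the 24 had. The genes were ranked by this same contrast, so their values are a description.

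Ionocyte genes held the named gene with the smallest p. The gene is trpv6, which encodes the calcium channel at the outer surface of ionocytes through which larvae take up calcium. Its levels were 11.85, 12.14 and 12.14 in TMAT embryos, against 10.79, 10.72 and 11.06 in MES embryos and 11.01, 10.39 and 11.06 in controls. All 3 TMAT arrays lay above every MES and control array, while MES and control values overlapped. The difference was 1.18 ± 0.17 (SE, n = 3 each; 95% interval 0.79 to 1.58, 2.27-fold), with an adjusted p of 0.702 by limma. In whole embryos, a change in the number of cells of a type and a change in RNA per cell cannot be told apart.

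The other ionocyte genes had smaller differences. rhcga, an ammonia channel of ionocytes that handle acid, was at 10.14, 10.74 and 9.76 in TMAT embryos, against 9.82, 8.92 and 9.31 in MES embryos (difference 0.86 ± 0.30, adjusted p = 0.702 by limma). One TMAT array lay below the highest MES array, so the groups overlapped. The carbonic anhydrase gene ca15a averaged 12.63 ± 0.13 in TMAT and 12.57 ± 0.22 in MES embryos (SD, n = 3 each). foxi3a, the transcription factor that specifies ionocytes, averaged 10.42 ± 0.26 in TMAT and 10.38 ± 0.12 in MES embryos. Their intervals ran over −0.34 to 0.47 for ca15a and −0.38 to 0.46 for foxi3a, so a difference of 2-fold lay outside both. All 4 measured ionocyte genes had positive differences, with a median of 0.46, where 50.8% of all features were positive. This count is a description, because the list was chosen with earlier results known and includes trpv6. Without MES 2, or without TMAT 3, 2 of the 4 were negative, and without TMAT 2, 1 was.

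Genes of calcium and ion hormones lay more often below 0, and 0 of 8 had an unadjusted p under 0.05. The list of calcium and ion hormones held 8 measured genes with a median of −0.16, and the 2 positive ones were the vitamin D receptor gene vdra and the vasopressin gene avp. The 6 genes of the parathyroid hormone and stanniocalcin families, a grouping made after seeing the data, were all negative, with a median of −0.26. The parathyroid hormone gene pth1a had a difference of −0.18, its paralogue pth1b −0.34, and the related pthlha and pthlhb −0.34 and −0.35. All 8 intervals lay within 2-fold. MES 2 was the highest of the 6 arrays for 5 of the 8 genes. The list's median level, 8.60, lay among the 9277 dimmest features (mean level 6.11 to 9.21). Of those features 39.0% were positive, against 50.8% of all features. Among epidermal genes 3 of 4 were positive, with a median of 0.10.

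Tight junction genes were spread about 0, with 6 of 13 positive and a median of −0.01. The exception in size was cldn5a, a claudin best known from the brain's vessels and ventricle lining. It was at 10.49, 10.77 and 10.77 in TMAT embryos, against 9.78, 9.71 and 10.15 in MES embryos and 10.60, 11.11 and 10.48 in controls. MES values lay below every TMAT and control value, and TMAT values overlapped controls (difference 0.80 ± 0.18). Another claudin gene, cldn33b, had a difference of −0.46 ± 0.17.

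Among the 12 named genes higher in TMAT embryos, the difference next in size to that of trpv6 belonged to a gene of nervous transmission. gad3, of the glutamate decarboxylase family whose enzymes make the inhibitory transmitter GABA, was at 10.05, 10.08 and 9.93 in TMAT embryos. It was at 8.96, 8.48 and 9.20 in MES embryos and at 10.09, 10.41 and 9.34 in controls. The MES arrays were low against both other groups, and TMAT and control values overlapped. The difference was 1.14 ± 0.21 (95% interval 0.66 to 1.61, 2.2-fold; adjusted p = 0.702 by limma). The list of GABA and glutamate genes held 16 measured members, of which 13 were positive. It included 3 genes of other function, the glycine transporter slc6a5, the glycine receptor subunit glra3 and the receptor-associated grinaa, and without them 10 of 13 were positive with a median of 0.16. An unadjusted p under 0.05 with TMAT higher was found for 3 of these 13, where 1.86% of all features had one. Besides gad3 they were slc17a6a, which loads glutamate into vesicles (0.52 ± 0.20), and gria1b, an AMPA-type glutamate receptor subunit (0.40 ± 0.15). With a replicate block, 1 of the 16 had one. Without TMAT 2, 7 of the 16 were negative with a median of 0.05, and 2 to 5 were negative without any other single array. The mean over the 16 was 11.49, 11.52 and 11.21 on the TMAT arrays, against 11.28, 11.06 and 11.24 on the MES arrays. TMAT 3 thus lay below MES 1 and MES 3.

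Genes of cholinergic and monoamine transmission lay more often on the other side of 0. Of 19 list members, 6 were positive, but 2 of the negative ones, htra1a and htra3a, are proteases that the symbol pattern took in. Without them 6 of 17 were positive, with a median of −0.16. The list's median level, 9.13, lay among the 9277 dimmest features (mean level 6.11 to 9.21). Of those features 39.0% were positive, against 52.5% of the next brighter 9276 and 50.8% of all features. The list's median lay close to the upper limit of the dimmest group, and a share matched to the levels of its members was not worked out. The nicotinic receptor gene chrna4b, read by 1 probe, was at 11.48, 11.83 and 11.72 in TMAT embryos, against 12.29, 12.22 and 12.56 in MES embryos. The muscarinic receptor gene chrm5a had a difference of −0.56 ± 0.17. pdyn, which encodes the precursor of the opioid peptides called dynorphins, was at 9.52, 9.59 and 9.74 in TMAT embryos and at 10.013, 10.188 and 10.203 in MES embryos. Controls were at 11.04, 11.26 and 10.22, so both particle groups lay below every control array, and TMAT lay below MES. General neuronal and synaptic vesicle genes had a median of 0.01, and all 6 of their intervals lay within 2-fold.

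Of the 12 named genes with the smallest p and TMAT higher, the next in size after trpv6, gad3 and cldn5a were arid6, tspan5b and stx4. arid6, named for its AT-rich DNA interaction domain, was at 10.71, 10.83 and 10.73 in TMAT embryos, against 9.89, 10.03 and 10.18 in MES embryos and 10.296, 9.752 and 10.189 in controls. As for trpv6, all TMAT arrays lay above every MES and control array. The membrane protein gene tspan5b, a tetraspanin, was at 13.05, 12.70 and 12.58 in TMAT embryos and at 12.002, 11.818 and 12.398 in MES embryos, with controls at 13.10, 12.61 and 13.20. The membrane fusion gene stx4, a syntaxin, was at 10.02, 10.02 and 10.37 in TMAT embryos and at 9.76, 9.10 and 9.56 in MES embryos. Its controls were at 8.465, 8.318 and 10.305 and spanned both groups.

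**Figure D2:**
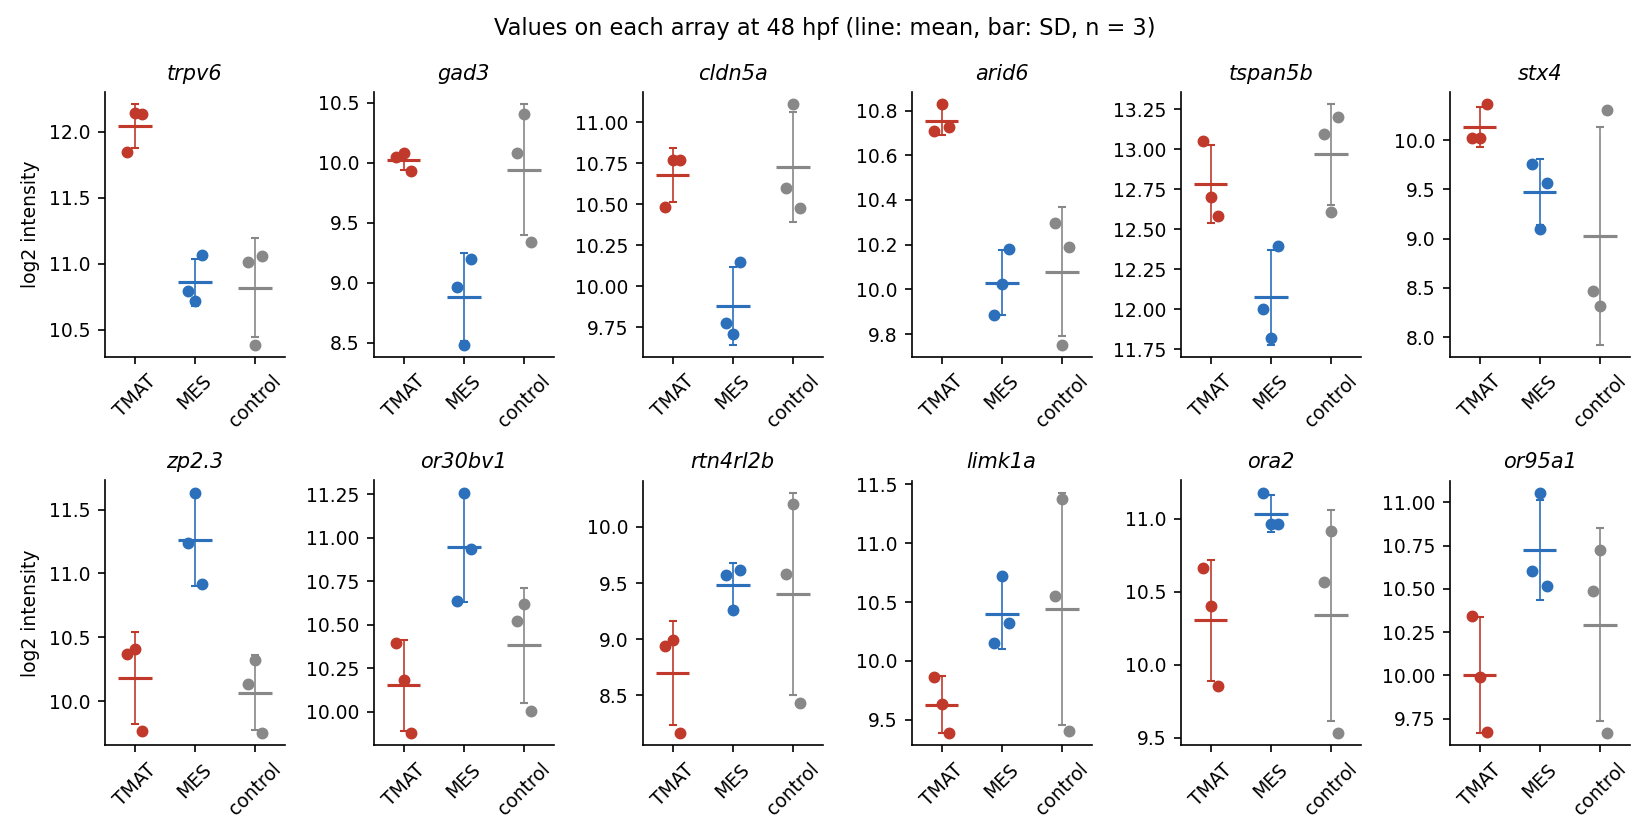
Log2 intensity on each array at 48 hpf for the 6 named genes with the largest differences in each direction among the 12 with the smallest p (points, 3 arrays a group; line, mean; bar, SD). TMAT and MES points do not overlap in any panel, and the controls, which did not enter the fit, lie at the MES level for trpv6 and arid6, near the TMAT level for gad3, cldn5a, tspan5b and zp2.3, and spread over both for stx4, rtn4rl2b and limk1a.

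The other 6 genes of the 12 higher in TMAT embryos had differences of 0.48 to 0.65. They were chordc1a, a partner of the chaperone Hsp90 (0.65); msi1a, an RNA-binding protein of neural precursors (0.59); selenos, a selenoprotein of the endoplasmic reticulum (0.55); ppm1e, a protein phosphatase (0.55); gna14, a G protein subunit (0.51); and cdip1, a p53 target in human cells (0.48). The place of these 12 genes against controls is a description, because they were chosen for TMAT values above MES values. That choice favours high TMAT and low MES values, and the share over all features was not counted. TMAT arrays lay above every control for 2 of them (trpv6 and arid6) and below for 1 (chordc1a), whereas MES arrays lay below every control for 7. For 3 genes both groups overlapped the controls. chordc1a was below controls in both groups. Without control 2, TMAT arrays lay above the controls for 2 and below for 2, MES arrays lay below for 10, and both overlapped for 1.

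Among the genes with lower values in TMAT embryos, zp2.3 of the egg coat had the smallest p of the named genes, and all 3 measured egg coat genes had lower values. zp2.2, zp2.3 and zp3.2 encode zona pellucida glycoproteins, the building material of the egg envelope, which fish mostly make in the ovary. zp2.3 was at 10.37, 10.41 and 9.76 in TMAT embryos, against 11.24, 11.63 and 10.92 in MES embryos and 10.13, 10.32 and 9.75 in controls (difference −1.08 ± 0.25, adjusted p = 0.702 by limma). zp2.2 was at 12.16, 12.20 and 11.47 in TMAT embryos, against 12.82, 13.27 and 12.37 in MES embryos and 11.51, 11.82 and 11.19 in controls. zp3.2 was at 10.07, 9.94 and 8.76 in TMAT embryos, against 10.52, 11.04 and 10.14 in MES embryos and 8.74, 8.82 and 9.20 in controls.

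MES arrays lay above every TMAT and every control array for each of the 3 genes. TMAT values overlapped controls only through TMAT 3, while TMAT 1 and TMAT 2 lay above every control for each gene. The mean over the 3 genes was 10.87, 10.85 and 10.00 on the TMAT arrays. It was 11.53, 11.98 and 11.14 on the MES arrays and 10.13, 10.32 and 10.05 on the controls. The median of the 3 differences was −0.98. For all 3, the highest of the 6 arrays was MES 2 and the lowest was TMAT 3, the arrays least like the others. Without both of these arrays, a setting chosen after seeing the data, all 3 differences were still negative and their median was −0.42. Of the 6 listed markers of the adult ovary, 4 were measured, these 3 and figla, and all 4 stood more than 2-fold above the random probes on all 6 arrays.

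Receptors for smell and taste gave the widest one-sided pattern among the lists. All 23 measured odorant and taste receptor genes had negative differences, where 49.2% of all features did. They ranged over −0.81 to −0.16 with a median of −0.48, and 8 of the 23 had an unadjusted p under 0.05, where 5.2% of all features had one with TMAT lower. That count was 6 with a replicate block, 1 with all 18 arrays and 5 to 10 with 1 array left out. The groups did not overlap for 7 of the 23, against 7.05% of all features. The list's median level, 8.64, lay among the 9277 dimmest features (mean level 6.11 to 9.21). Of those features 39.0% had differences above 0, and 646 had an unadjusted p under 0.05 with TMAT lower. The odorant receptor gene or30bv1 was at 10.40, 10.18 and 9.88 in TMAT embryos, against 10.64, 11.26 and 10.94 in MES embryos and 10.52, 10.62 and 10.00 in controls. Its relative or95a1 was at 10.34, 9.99 and 9.67 in TMAT embryos, against 10.60, 11.06 and 10.52 in MES embryos and 10.49, 10.73 and 9.66 in controls. ora2, a receptor of the class related to mammalian vomeronasal receptors, was at 10.66, 10.40 and 9.85 in TMAT embryos, against 11.18, 10.96 and 10.96 in MES embryos and 10.57, 10.92 and 9.53 in controls.

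The pattern moved with single arrays. The mean over the 23 genes was 8.66, 8.30 and 8.20 on the TMAT arrays, against 8.68, 9.31 and 8.65 on the MES arrays and 8.39, 8.77 and 8.07 on the controls. TMAT 1 was thus level with MES 1 and MES 3. MES 2 was the highest of the 6 arrays for 21 of the 23 genes, and the lowest was TMAT 3 for 16 and TMAT 2 for 7. Without MES 2, 20 of 23 differences were negative with a median of −0.24. Without TMAT 3, 23 were negative with a median of −0.45, and without both arrays 18 were negative with a median of −0.14. The values were also dim, with the TMAT mean 1.61 to 2.28 above the random probes and the MES mean 2.33 to 3.01 above them.

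**Figure D3:**
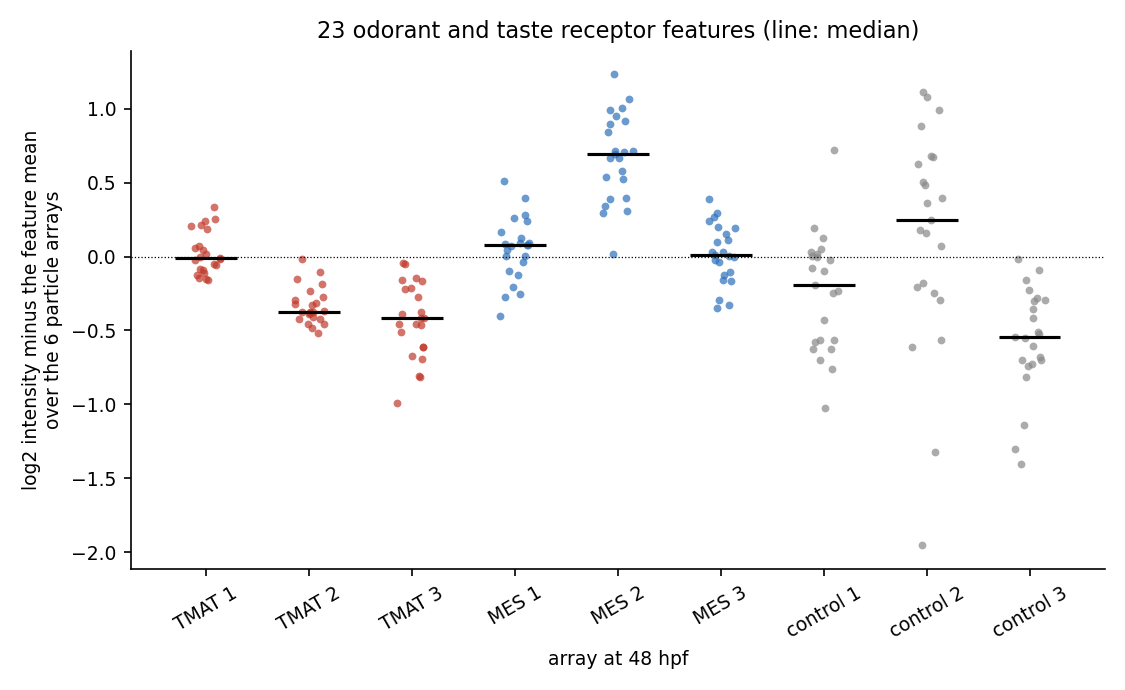
The 23 odorant and taste receptor genes on each array at 48 hpf, as log2 intensity minus the gene's mean over the 6 particle arrays (points, genes; black line, median). MES 2 lies above the other particle arrays and TMAT 2 and TMAT 3 below them, while TMAT 1, MES 1 and MES 3 have medians near 0, and the 3 controls, shown for their range, spread over both sides.

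The same arrays marked the lower values as a whole, and to a lesser degree the higher ones. Among the 1931 features with lower TMAT values at an unadjusted p under 0.05, TMAT 3 was the lowest array for 1640 (84.9%) and MES 2 the highest for 1568 (81.2%). Over all features, TMAT 3 was the lowest for 28.3% and MES 2 the highest for 23.1%. These shares are not like ones, because among the 1931 the lowest was always a TMAT array and the highest a MES array. Over all features, TMAT 1 was the lowest for 14.15% and TMAT 2 for 10.61%, while MES 1 was the highest for 8.49% and MES 3 for 14.7%. The 691 features with higher TMAT values at an unadjusted p under 0.05 carry the like limit. Among them TMAT 3 was the highest for 360 (52.1%) and MES 2 the lowest for 441 (63.8%). Over all features, TMAT 3 was the highest for 25.1% and MES 2 the lowest for 26.3%. Of the 182 features more than 2-fold lower in TMAT embryos, a set with the same limit, TMAT 3 was the lowest for 179 and MES 2 the highest for 167. Their mean levels were 11.31, 11.27 and 10.16 on the TMAT arrays and 11.94, 12.39 and 11.75 on the MES arrays. Without TMAT 3, 1129 features were higher and 814 lower at an unadjusted p under 0.05, so the excess of lower values was gone. Part of the pattern lay in one source of features. Of the 182, 142 (78.0%) carried ENSDART transcript identifiers, against 27.3% of all features, and 2 had a gene symbol. They also rested on fewer probes, with a median of 5 against 8 over all features. Of the 182, 13 were read by 1 probe, against 257 of all 37105 features. Of the 9277 dimmest features, 39.0% had differences above 0, against 52.5% to 57.6% in the 3 brighter groups of 9276 features each. Lower TMAT values at an unadjusted p under 0.05 were not confined to the dimmest, with 646 there and 630 in the next brighter group. The 182 were not dim as a set, with a median level of 11.61 against 10.96 over all features.

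The other genes of the 12 lower in TMAT embryos included regulators of growth and defence. limk1a, a kinase that controls actin filaments, was at 9.87, 9.64 and 9.38 in TMAT embryos, against 10.15, 10.72 and 10.32 in MES embryos. rtn4rl2b, related to the Nogo receptor of axons, was at 8.94, 8.99 and 8.16 in TMAT embryos and at 9.58, 9.26 and 9.62 in MES embryos. Controls ranged over 9.40 to 11.37 for limk1a and over 8.43 to 10.21 for rtn4rl2b and overlapped both groups. tlr2, a receptor for bacterial lipoproteins, had a difference of −0.59 ± 0.18, the odorant receptor gene or30bu2 one of −0.56 ± 0.18, and exd1, a piRNA pathway gene in mice, one of −0.54 ± 0.17. Of these 12 genes, MES arrays lay above every control for 4 (zp2.3, chrna4b, or30bv1 and ora2) and below for 1 (pdyn), while TMAT arrays lay below for 1 (pdyn). Both groups overlapped the controls for 7. Without control 2, MES arrays lay above the controls for 8 and below for 1, TMAT arrays above for 1 and below for 2, and both overlapped for 3. The choice of these 12 genes favours high MES and low TMAT values, and the share over all features was not counted.

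Stress responses differed little between the particles. All 8 measured heat shock genes had intervals within 2-fold, with a median of 0.02. The same held for all 4 genes of the endoplasmic reticulum stress response, which had a median of 0.01 and included ddit3, a transcription factor of that response (0.13), and calr, a calcium-binding chaperone (0.08). All 6 metal handling genes also had intervals within 2-fold. Among them mtf1, the factor that switches on metal response genes, had a difference of −0.22, and the zinc exporter gene slc30a1b one of −0.18. None of the members of these 3 lists had an unadjusted p under 0.05.

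Of 12 oxidative stress genes, 8 were positive, the median was 0.15, and 11 intervals lay within 2-fold. Without MES 2, 6 of the 12 were negative with a median of −0.0037, and without TMAT 3, 6 were negative with a median of 0.05. Without any other single array, 3 or 4 were negative. The list included bach1a and bach1b, repressors of haem and antioxidant genes (0.32 and 0.36), and msrb2, which repairs oxidized methionine (−0.37). Among 6 genes of apoptosis and p53, casp6a, a caspase, had a difference of 0.41 ± 0.15 and casp3b one of −0.23, and all 6 intervals lay within 2-fold. Of 17 genes of xenobiotic metabolism, 6 were positive and 12 intervals lay within 2-fold. The cytochrome P450 genes cyp2aa3 (0.57 ± 0.20) and cyp2aa1 (0.55 ± 0.19) were higher at an unadjusted p under 0.05, while cyp2x8 had a difference of −0.62 and the efflux transporter gene abcg2a one of −0.41. Over all features 1.86% were higher at that p. Without MES 1, TMAT 1 or TMAT 3 the count of higher genes in the list was 0. The count of lower genes was 0 in the fit reported and 3 without MES 3. Of 2659 features with a gene symbol, 55 had an unadjusted p under 0.05 with TMAT higher and 69 with TMAT lower. Over all features the shares were 1.86% and 5.2%. Features with a symbol made up 7.17% of all features, 7.96% of the higher ones and 3.57% of the lower ones.

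Complement and acute phase genes, part of the innate immune system, were all positive (5 of 5), with a median of 0.30, though 1 was negative without MES 1 or without MES 2. c3a.2, a complement C3 gene, was at 11.30, 11.20 and 11.44 in TMAT embryos, against 11.11, 11.05 and 10.55 in MES embryos and 8.72, 9.76 and 10.05 in controls. TMAT lay above MES on every array by a small margin, and both particle groups lay above every control. The difference between particles was 0.41 ± 0.19. Of 6 macrophage and neutrophil genes, 4 were positive, and il10, an anti-inflammatory cytokine, had a difference of −0.69 ± 0.29. ada, adenosine deaminase of purine breakdown, had one of −1.09 ± 0.42 that rested on 2 arrays. It was at 9.37, 9.50 and 9.53 in TMAT embryos, against 10.54, 11.53 and 9.60 in MES embryos and 10.98, 11.32 and 10.14 in controls, so MES 3 lay beside the TMAT arrays.

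Markers of the main organs differed by little. Lens genes, mostly crystallins, had a median of −0.07 with 4 of 24 positive, and 22 intervals lay within 2-fold. Without MES 1, 12 of the 24 were positive. Photoreceptor and retina genes had a median of −0.15 with 1 of 9 positive, and all 9 intervals lay within 2-fold. Of the 9, 5 were negative without MES 3, 6 without TMAT 1, and 7 or 8 without any other single array. Skeletal muscle genes had a median of 0.01 with 9 of 18 positive, and red blood cell and haem genes one of −0.04 with 4 of 9 positive. None of the lens, photoreceptor or muscle genes had an unadjusted p under 0.05. Of 12 cartilage and matrix genes, sp7, the transcription factor of bone-forming cells, had a difference of −0.49 ± 0.17, and the list's median was −0.07.

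Housekeeping groups lay near 0 as well. Cell cycle and replication genes had a median of −0.07, cholesterol genes −0.05 and mitochondrial respiration genes −0.08, with intervals within 2-fold for 10 of 11, 14 of 15 and 10 of 10. Solute carriers, the largest list, had a median of 0.04 with 37 of 64 positive and 62 intervals within 2-fold. Of the 64, 3 had an unadjusted p under 0.05, all with TMAT higher, where 1.86% of all features had one in that direction and 7.07% in either. They were slc17a6a, slc43a3b, of a family of amino acid and purine carriers (0.42), and slc25a21, a mitochondrial oxodicarboxylate carrier (0.42). In all, 0 members of the 34 lists passed the test.

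**Figure D4:**
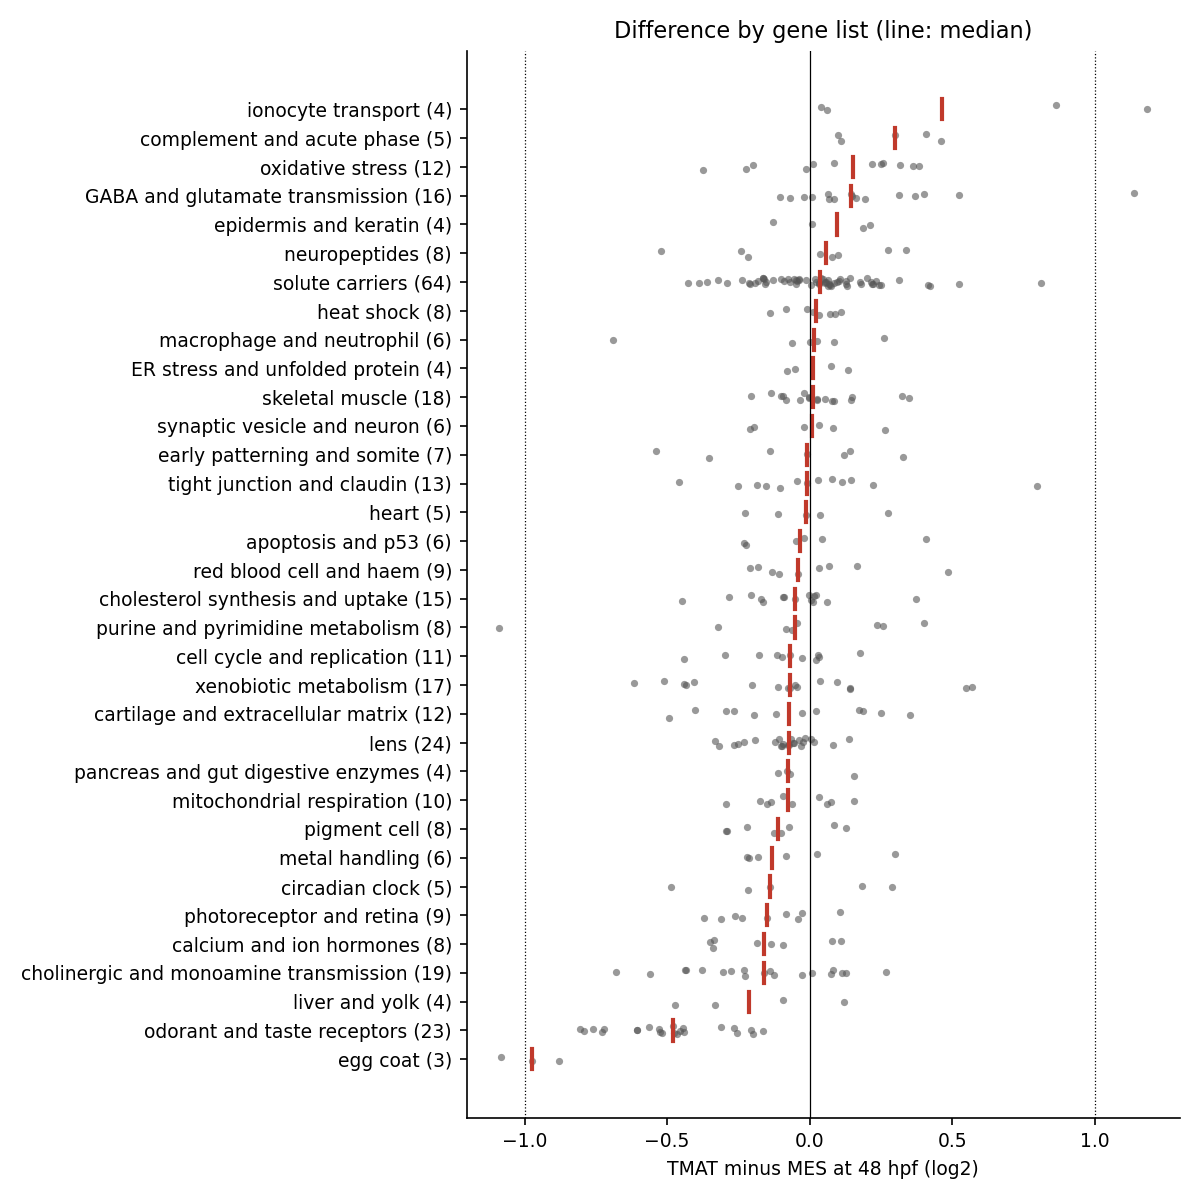
Difference between TMAT and MES embryos at 48 hpf (TMAT minus MES, log2, horizontal axis) for the measured genes of 34 lists, with the number of genes in brackets (points, genes; red line, median; dotted lines, 2-fold). Egg coat genes and the 23 odorant and taste receptor genes lie wholly below 0, ionocyte and complement genes wholly above, and the other lists lie on both sides of 0.

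At 24 hpf the same contrast on its own 6 arrays also gave 0 calls (0% of features). The smallest adjusted p was 1 by limma, and 205 features had an unadjusted p under 0.05 (0.552%), against 1855 expected by chance. Of these, 182 were higher (0.49%) and 23 lower (0.062%) in TMAT embryos. The groups did not overlap with TMAT higher for 681 features (1.84%), and 44.7% of all differences were positive. Of the 24 named genes, 10 kept their sign, 8 of the 12 higher and 2 of the 12 lower, and 0 had an unadjusted p under 0.05 at 24 hpf. trpv6 was at 11.62, 12.36 and 11.77 in TMAT embryos and at 11.54, 11.50 and 12.05 in MES embryos at 24 hpf, and these values overlapped (difference 0.22 ± 0.27). All 3 egg coat genes had positive differences at 24 hpf, with a median of 0.16. Of the 23 odorant and taste receptor genes, 18 were positive at 24 hpf, with a median of 0.15.

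The change of the difference between ages, tested on the 12 arrays, passed for 0 features. An unadjusted p under 0.05 was found for 1415 (3.81%), against 1855 expected by chance. For trpv6 the difference at 48 hpf exceeded that at 24 hpf by 0.97 ± 0.32, and for gad3 by 1.26 ± 0.32, each with an adjusted p of 1.00 by limma. For zp2.3 the change was −1.24 ± 0.37. A difference confined to 48 hpf was therefore not shown for any gene.

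**Figure D5:**
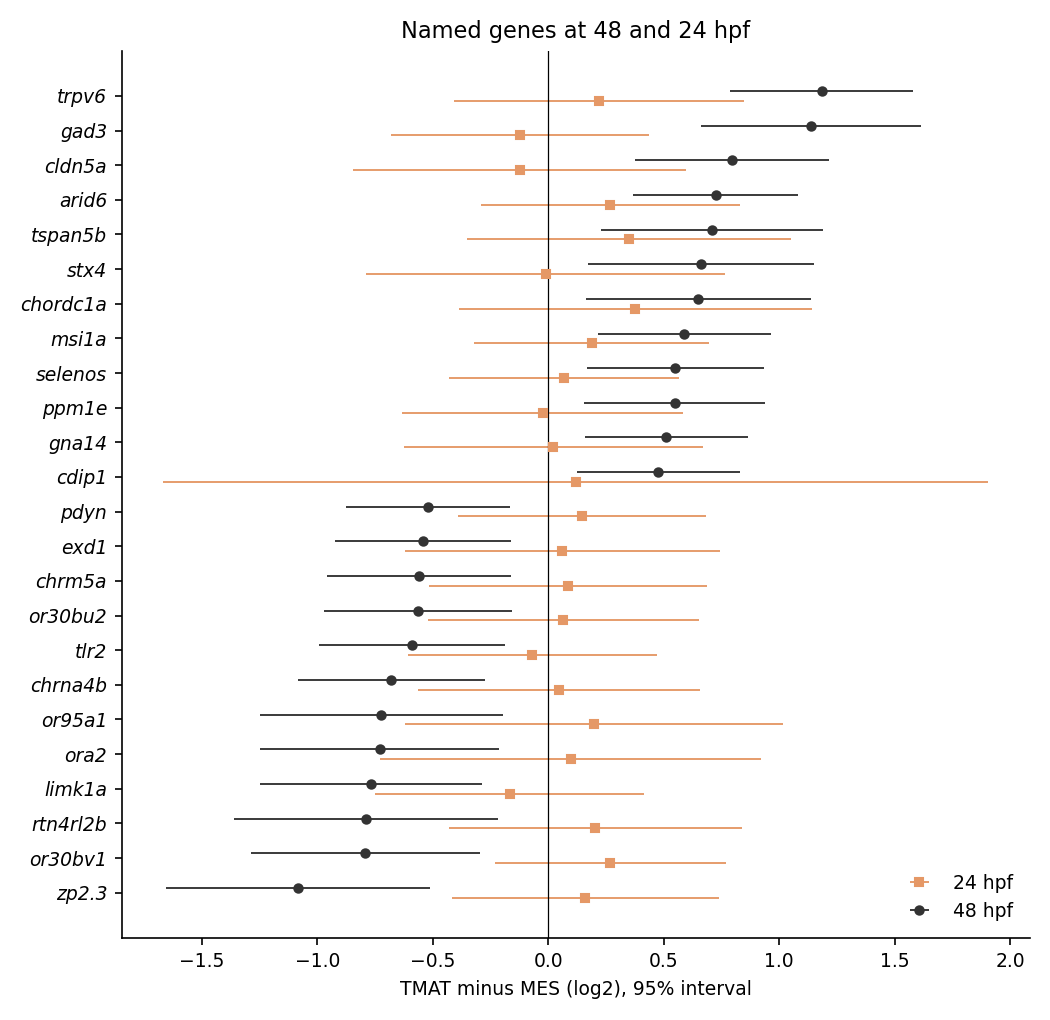
Difference between TMAT and MES embryos (TMAT minus MES, log2, horizontal axis) at 24 hpf (orange squares) and 48 hpf (black circles) for the 24 named genes, with 95% intervals from limma. The 24 hpf intervals all cross 0, and 10 of the 24 genes keep their sign. The genes were chosen at 48 hpf, so only the 24 hpf points are free of that choice.

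Of features without a gene symbol, the smallest p with TMAT higher belonged to ZV700S00000267, which was at 8.42, 8.85 and 9.26 in TMAT embryos and at 7.11, 7.03 and 7.11 in MES embryos (difference 1.76 ± 0.22). It was followed by TC257206 (1.13 ± 0.15). With TMAT lower they were ENSDART00000073757 (−0.91 ± 0.16) and ENSDART00000057837 (−1.08 ± 0.21). The adjusted p of all 4 was 0.702 by limma.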

How the data were processed

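Total RNA of pooled embryos was hybridised to one-colour NimbleGen arrays. The authors deposited, for each array, a linear intensity per feature, and the submitters' processing notes name RMA (background correction, quantile normalization and probe summary); no version was given in the sources. Intensities were converted to log2 without a pseudocount and were not normalized again. The random-probe feature was set aside, leaving 37105 features of 1 to 12 probes. RefSeq's gene table (assembly GRCz12tu, used for names only) gave symbols for 2659 of 3051 RefSeq features. The combined table, with 16 of 18 columns equal to another array (tolerance 0.001), was not used.

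TMAT and MES arrays were compared with limma 3.58.1 in R 4.3.3 (lmFit, eBayes, two-sided, Benjamini-Hochberg over all features), tested on simulated data. Precision is limited by having 3 arrays per group. The genes named are the 12 symbols with the smallest p each way, up to 4 per list and 2 unnamed identifiers each way. Members and lists were chosen with earlier results of these data known. Replicate numbers were not taken to pair the arrays. Same-number correlations of deviations were −0.18, −0.44 and 0.07 at 48 hpf and 0.47, −0.41 and −0.73 at 24 hpf. Those of differing numbers at 48 hpf ran from −0.54 to 0.62. With 3 arrays a group, these values cannot show whether pools shared a clutch or a batch. Alternatives were leaving out each array, a replicate block, all 18 arrays, median centring, renewed quantile normalization, a filter on dim features, trend and robust moderation, array weights and an unmoderated statistic. List counts without misplaced members and control ranges without control 2 were added after seeing the data.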

Additional observations from a re-analysis of the deposited data

How the results depend on the processing

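The count of 0 features at 48 hpf held under all 14 alternatives and without MES 2 and TMAT 3 together, a setting chosen after seeing the data, as did the count of 0 at 24 hpf and for the change between ages under their own alternatives. At 48 hpf the smallest adjusted p was 0.206 with array weights and 1 with all 18 arrays, and 0.474 to 0.999 when 1 array was left out. With a replicate block it was 0.727, again with 0 calls. The array weights gave MES 1 a weight of 6.55, against 0.38 to 1.06 for the other arrays. Results with array weights therefore leaned on 1 MES array. What did depend on the processing was the side of the features with an unadjusted p under 0.05. Lower TMAT values made up 73.6% of them in the fit reported, 49.6% with array weights, 58.7% with the unmoderated statistic, 64.0% after renewed quantile normalization, 77.0% with all 18 arrays, and 41.9% (without TMAT 3) to 83.5% (without MES 1) when 1 array was left out. At 24 hpf that share was 11.2%, and 65.4% without TMAT 2 of that age. At 48 hpf the number of such features was 2622 in the fit reported, 590 with all 18 arrays, 4873 with array weights and 1108 to 3726 with arrays left out. Of 48 named genes, 41 kept their sign under every alternative run, and 0 were called. These 48 were the 24 with the smallest p and the measured ionocyte, egg coat, odorant and taste genes. Genes named from other lists only were not followed in this way. trpv6 stayed between 1.07 and 1.29 and gad3 at 0.94 or above. The number of arrays, 3 a group, limits what could be detected.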
